A study of Mus musculus with 2 samples.

Results

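The genes described here encode the alpha chains of the collagens. They were taken from 2 single-colour Agilent mouse arrays as the non-control spots whose gene name has the form Col, a type number, a and a chain number. This rule found 109 of 59305 spots, which are 91 of 56605 probes and 44 of 36995 genes: 11 fibrillar chains, 9 network-forming chains, 6 chains of type 6 and 18 chains of all other types. The normal array held RNA labelled as that of lymph node stromal cells from mice that carried no tumor, and the tumor-draining array RNA labelled as that of stromal cells from nodes draining a 4T1 tumor. Cells of 4T1, a mammary carcinoma line of the mouse, had been placed under the skin at the mammary gland of C57BL/6 hosts 2 weeks before the nodes were taken. All mice were female, and the stromal cells of both groups were the cells negative for CD45, the surface marker of leukocytes, sorted by flow cytometry. 4T1 is known as a line of the BALB/c strain, and the labels name C57BL/6 hosts. The strain of the normal mice, the ages, the number of animals and any pooling were not given in the sources used here. Each group had 1 array, so the difference between groups has no replicate check and no p-value is given.

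Collagens are the main structural proteins of the extracellular matrix. Each molecule is a triple helix of alpha chains, alike or different, and glycine has to stand at every turn of the helix, as the first residue of a repeated triplet Gly-X-Y. Fibrillar collagens form cables, network collagens form sheets such as those of basement membranes, and type 6 forms beaded filaments beside basement membranes. In lymph nodes, fibroblastic reticular cells wrap collagen-rich fibres that carry lymph-borne molecules through the tissue, and the vessels lie on basement membranes.

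The helix repeat can be read in some probes of the array, which are shown because they tie a measured value to the feature that defines the family. Glycine codons begin with GG, so a stretch that encodes the triplet has GGN (N is any base) every 9 bases. The motif was searched on the printed strand only, and a probe counted where GG stood every 9 bases from its first occurrence to the probe's end. It was found in 4 of 91 collagen probes (4.4%) and in 5 of 56514 other probes (0.0088%), those of Cplx2, Fcnb, Scara5, Sox5 and Vash1. The 4 collagen probes follow, 5′ to 3′ as deposited, with each GGN in capitals.
Col5a3: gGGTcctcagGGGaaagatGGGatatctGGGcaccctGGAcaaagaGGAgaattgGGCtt
Col6a3: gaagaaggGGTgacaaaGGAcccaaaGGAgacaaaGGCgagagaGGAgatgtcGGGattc
Col11a2: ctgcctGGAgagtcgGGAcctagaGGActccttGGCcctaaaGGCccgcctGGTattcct
Col15a1: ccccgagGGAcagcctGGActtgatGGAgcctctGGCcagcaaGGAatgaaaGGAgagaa
On the mm9 build the Col5a3 probe spans chr9:20590066-20590795 on the minus strand and holds 7 such codons, and the Col6a3 probe spans chr1:92689602-92690594 on the minus strand with 6. The Col11a2 probe spans chr17:34189287-34189453 on the plus strand with 6, and the Col15a1 probe lies at chr4:47283786-47283845 on the plus strand with 6. The first 3 of these spans are longer than the 60 bases of the probe, so those probes cross at least 1 intron. Through them the difference between the arrays (log2, tumor-draining minus normal) was -1.76 for Col5a3, -2.46 for Col6a3, 0.28 for Col11a2 and -1.23 for Col15a1. Only the Col15a1 probe is the brightest of its gene, and the other 3 genes are described below through brighter probes.

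Signals below are processed signals, linear intensities with the background already subtracted, given for the normal and then the tumor-draining array. A difference is the log2 signal of the tumor-draining array minus that of the normal array, after each array was divided by its 75th percentile (374 and 358). A probe, or the gene it stands for, is called detected on an array where the scanner software marked 50% or more of its spots as well above background, which held for 36783 probes on the normal and 35570 on the tumor-draining array. Spots of a probe printed 10 times scattered little, with an SD of the log2 difference of 0.050 (298 probes). Probes of the same gene scattered further: their SD had a median of 0.27 over 7602 genes, and of 0.36 over the 18 collagen genes with several probes detected on both arrays. Neither SD covers differences between mice or sorts. The CD45 gate was checked against marker genes: the leukocyte list was higher on the tumor-draining array in 8 of 8 genes, and Ptprc, which encodes CD45, had signals of 3702 and 17432. All 11 markers of fibroblastic reticular cells and all 10 of blood endothelial cells were lower, so the comparison is between arrays that also differ in these markers.

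Most collagen chain genes had lower values on the tumor-draining than on the normal array. Of the 44, 37 were detected on both arrays, 3 only on the normal array, 2 only on the tumor-draining array and 2 on neither. At least 2-fold lower values were found for 28 of the 37, 2 were at least 2-fold higher, and 7 lay within 2-fold. Among all 22145 genes detected on both arrays, 15.9% were lower by 2-fold or more and 11.1% were higher by that much, so the collagen chains' share of lower values, 75.7%, was above the background and their share of higher values did not exceed it. Differences below 0 were seen for 31 of the 37, beside 43.6% of all genes. The median difference of the collagen chains was -1.65, beside 0.12 for all genes detected on both arrays. Of the 2501 genes detected on 1 array only, 21.5% had a bound of 2-fold or more in the lower direction and 14.8% in the higher one, as did 2 and 1 of the 5 such collagen chains. In a bulk sample of sorted cells, fewer cells of a type and less RNA per cell cannot be told apart.

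**Figure D1:**
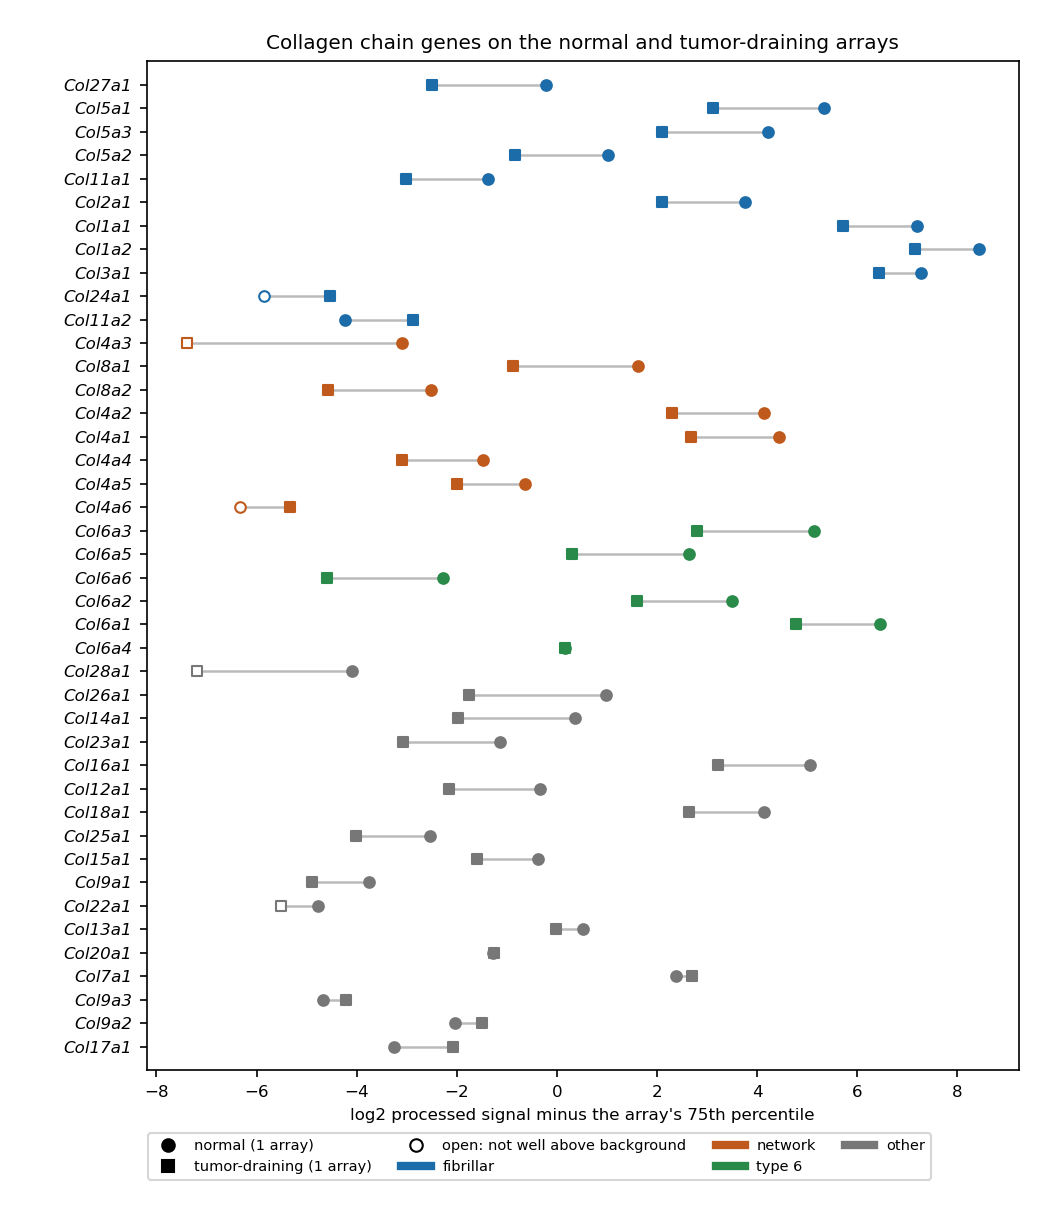
Level of each collagen chain gene detected on at least 1 array, as log2 processed signal minus the array's 75th percentile (x axis), with a circle for the normal and a square for the tumor-draining array, 1 array each; open symbols were not well above background, and colours give the 4 classes. Squares lie to the left of circles for most genes, with Col11a2, Col17a1 and Col24a1 among those where they lie to the right.

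Among the fibrillar collagens, 8 of the 10 chains detected on both arrays were lower by 2-fold or more, 1 was higher and 1 lay within 2-fold, with a median of -1.65. Col1a1 and Col1a2 encode the chains of type 1, the main fibre of most connective tissue. The Col1a1 signal was 54493 on the normal and 18908 on the tumor-draining array at its brightest probe (chr11:94813075-94813134), a difference of -1.47, 2.76-fold lower. For Col1a2 it was 129190 and 51399 (chr6:4490619-4490678), a difference of -1.27, 2.41-fold lower. Dimmer Col1a2 probes detected on both arrays gave -0.97 (signals of 810 and 395) and -0.35 (198 and 149), both within 2-fold. At their brightest probes the type 1 partners differed from each other by 0.20, less than the typical scatter between probes of 1 gene. The between-probe SD of these genes themselves was larger, 1.26 for Col1a1 and 0.47 for Col1a2, so this closeness depends on the probes taken. Col3a1, the chain of type 3, which is the collagen of reticular fibres, had signals of 58316 and 31073 (chr1:45405589-45405648), a difference of -0.85 and so within 2-fold. Its other 2 probes gave signals of 399 and 71.7, and of 485 and 116, with differences of -2.42 and -2.01, so the call for Col3a1 depends on the probe.

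Type 5 chains, which join type 1 fibrils and limit their thickness, were among the lowest of the fibrillar class. Col5a1 had signals of 15185 and 3130 (chr2:27894595-27894654), 4.65-fold lower with a difference of -2.22. Col5a3 had 6933 and 1527 (chr9:20574592-20574651), 4.35-fold lower with a difference of -2.12 and -1.76 at its other probe. Col5a2 had 754 and 200 (chr1:45431204-45431263), 3.61-fold lower with a difference of -1.85 and -1.14 at its other probe. The 3 type 5 chains spread over 0.36. Col27a1, a fibrillar chain of cartilage and other tissues, had signals of 322 and 63.5 (chr4:62995485-62995544) and the lowest difference of the class, -2.28, or 4.86-fold lower. Its other probe was detected on neither array.

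Col2a1, best known as the chain of cartilage collagen, had signals of 5041 and 1543 (chr15:97806485-97806544), 3.13-fold lower with a difference of -1.65. Its only probe was well detected on both arrays, whereas of 7 chondrocyte markers Acan, Matn1 and Matn3 were detected on neither array, Hapln1 only on the tumor-draining array and 3 on both. The summed signal of that list was 322 and 139. The part of cartilage cells in the Col2a1 value was not tested. The type 11 chains, which join type 2 fibrils, did not move together: Col11a1 had signals of 144 and 44.1 (chr3:113922153-113922211), a difference of -1.65, and Col11a2 had 19.9 and 49.0 (chr17:34203113-34203172), a difference of 1.36, or 2.57-fold higher. At the other Col11a2 probe, the one printed above, signals were 12.6 and 14.7. The 2-fold call for Col11a2 ended under normexp background correction, with a difference of 0.54, and with the mean over its probes, 0.82. Col24a1, a further fibrillar chain, was detected only on the tumor-draining array, with signals of 6.50 and 15.4 (chr3:145214473-145214532), at least 2.08-fold higher. For such genes the bright value is set against the dim one or, where that is larger, the array's lowest detected signal (7.72 on the normal and 8.27 on the tumor-draining array). Some probes not detected lie above that signal, so a fold given as at least is a ratio to this floor and no sure minimum.

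The sequences just before the starts of Col1a2 and Col3a1, chains of the main fibres of the node, are shown as examples. At their brightest probes these chains stood on different sides of 2-fold (2.41-fold and 1.80-fold lower). That contrast depends on probe and scaling. With the mean over probes detected on both arrays the sides were reversed, at -0.86 for Col1a2 and -1.76 for Col3a1. Under loess normalization both were past 2-fold (-1.91 and -1.41). The RefSeq promoter table on GRCm38.p6 matched 35 of the 44 collagen genes, with 38 promoters. The 250 bases before the start follow, 5′ to 3′, with CCAAT in capitals.
Col1a2: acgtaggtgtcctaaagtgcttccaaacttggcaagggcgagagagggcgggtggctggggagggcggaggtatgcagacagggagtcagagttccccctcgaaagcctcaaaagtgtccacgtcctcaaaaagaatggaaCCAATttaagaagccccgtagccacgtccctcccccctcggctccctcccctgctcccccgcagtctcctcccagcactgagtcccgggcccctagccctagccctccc
Col3a1: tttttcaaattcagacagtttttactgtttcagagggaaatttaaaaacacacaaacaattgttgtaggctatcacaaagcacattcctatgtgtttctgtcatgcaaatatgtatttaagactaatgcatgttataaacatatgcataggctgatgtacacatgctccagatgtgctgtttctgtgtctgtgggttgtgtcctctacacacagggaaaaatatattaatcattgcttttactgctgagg
The Col1a2 sequence lies at chr6:4505368-4505617 and the Col3a1 sequence at chr1:45311288-45311537, both on the plus strand. CCAAT boxes (CCAAT or, on the other strand, ATTGG) were searched in windows of this length. Col1a2 has 1, whose first base lies 109 bases before the start, and the Col3a1 window has no such letters. GC boxes (GGGCGG or CCGCCC) occur in the Col1a2 window, and a TATA box (TATAAA or TTTATA) in the Col3a1 window. CCAAT boxes were found in 13 of 38 collagen promoters (34.2%) and 33.8% of all 32851, GC boxes in 22 (57.9%) and 32.7%, and TATA boxes in 5 (13.2%) and 12.4%. A match describes letters and shows no binding.

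The size of the Col1a1 difference depended on the probe more than on the spots. Of its 4 probes, 2 were printed 10 times on each array and share 20 bases of the transcript. At the first, 10 normal spots ran from 51303 over a median of 54162 to 58517, and 9 tumor-draining spots from 17681 over 19184 to 19456. At the second (chr11:94813115-94813174), 8 normal spots ran from 28608 over a median of 34050 to 41787, and 9 tumor-draining spots from 17946 over 18771 to 20306. Spots of the arrays did not overlap at either probe. The log2 difference was -1.47 at the first and -0.80 at the second, with a spot SD (log2) on the normal array of 0.062 and 0.15. On the normal array 2 spots of the second probe were left out because the scanner software marked them as outliers (2534 and 43446). The other Col1a1 probes gave -2.06 (chr11:94814188-94814247, signals of 52986 and 12174) and 0.86 (chr11:94800628-94800687, signals of 10.9 and 18.9), so the dimmest of the 4 stood on the other side of 0.

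**Figure D2:**
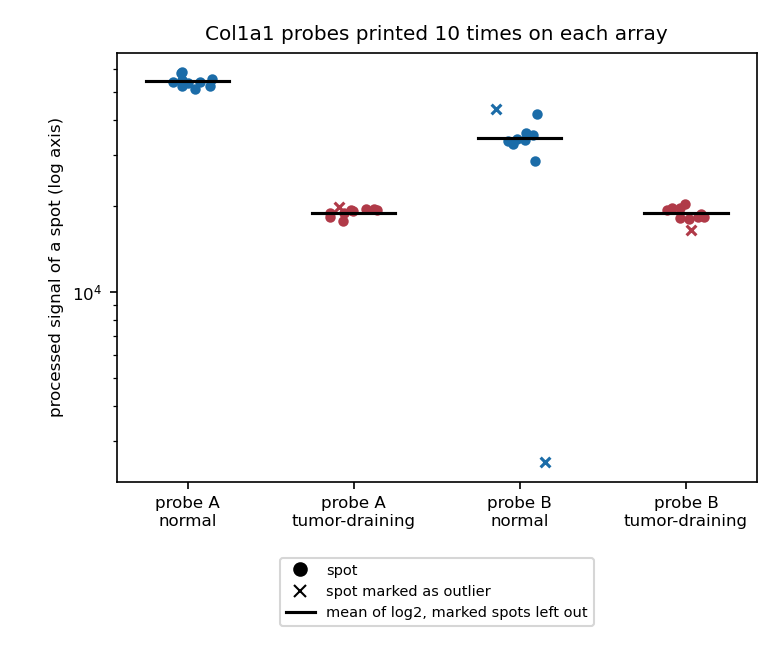
Processed signal (log axis) of every spot of the 2 Col1a1 probes printed 10 times on each array, probe A at chr11:94813075-94813134 and probe B at chr11:94813115-94813174; crosses are spots marked as outliers, and lines are means of log2 values without them. Tumor-draining spots have medians of 19184 and 18771 at probes A and B, while normal spots have 54162 and 34050.

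Across the class lists, 64 of the 91 collagen probes were detected on both arrays. Of these, 45 were lower and 2 higher by 2-fold or more, and 53 stood below 0. Of the 18 genes with several such probes, 13 had all probes below 0, 3 all above 0 and 2 probes on both sides, Col1a1 and Col13a1. In 9 of the 18 every probe was at least 2-fold lower. Such counts were not taken over all probes or over all genes with several probes. These counts therefore have no background beside them and describe the collagen probes only. In the main setting the genes with the brightest signals did not have the lowest differences. The 3 with a normal signal over 50000 (Col1a1, Col1a2 and Col3a1) had a median of -1.27, and the 13 between 1000 and 50000 had a median of -1.84. The 8 with a normal signal under 100 had a median of -0.34 and ran from -2.32 to 1.36. All these groups hold only genes detected on both arrays. Col4a3, Col22a1 and Col28a1, detected only on the normal array, also had normal signals under 100 and were left out. So were Col4a6 and Col24a1, detected only on the tumor-draining array. The normal signal is also a term of the difference, so these medians cannot show whether the difference depends on brightness. The values of the 3 brightest depend on the scaling. All 3 were lower by more than the between-probe SD of 0.27 with quantile, loess and the authors' table. Col1a1, Col1a2 and Col3a1 had -1.91, -1.57 and -1.34 with quantile normalization, and -1.89, -1.64 and -1.32 with the authors' table. The median of the 13 was not taken under these settings, so the gap of the main setting may not hold there. No non-control spot was saturated.

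**Figure D3:**
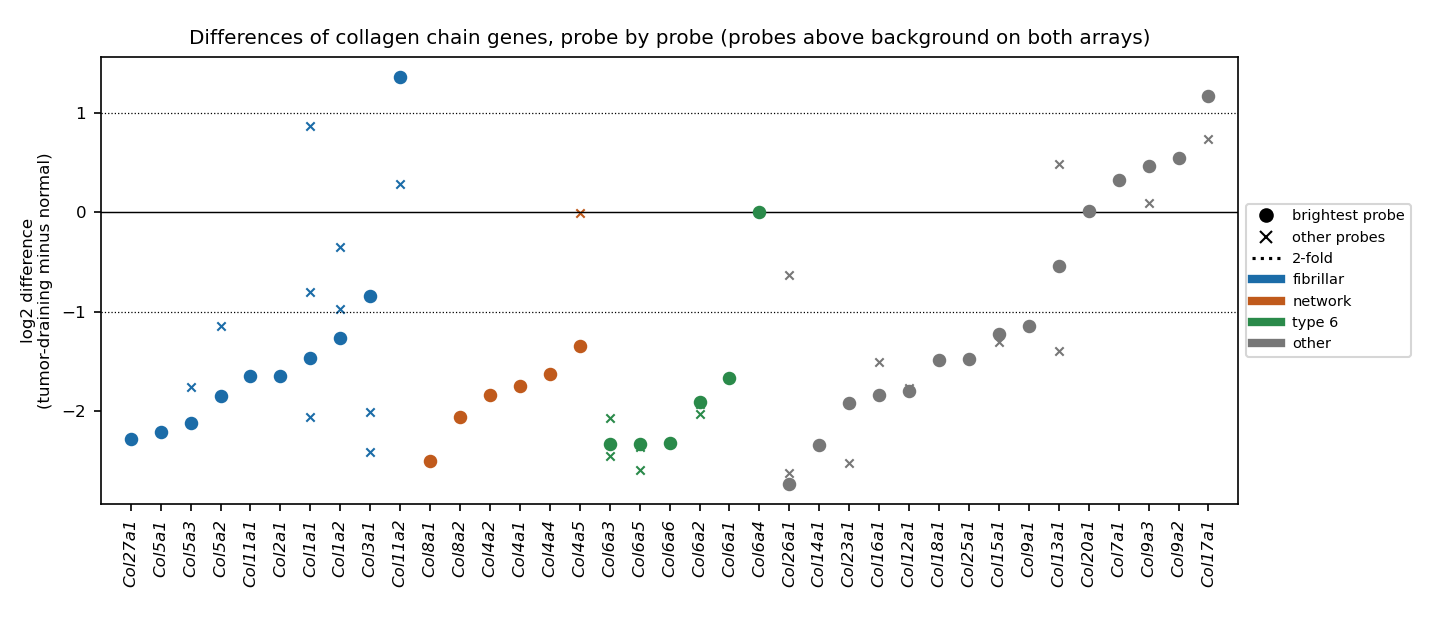
Log2 difference (tumor-draining minus normal) at every collagen probe detected on both arrays, by gene and coloured by class, with a dot for the brightest probe of a gene and a cross for its other probes; dotted lines mark 2-fold. Probes of type 6 genes lie close together, while those of Col1a1, Col3a1, Col4a5, Col11a2, Col13a1 and Col26a1 spread by over 1.

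Of the network collagens, 6 of 6 chains detected on both arrays were lower by 2-fold or more, with a median of -1.80. Col4a1 and Col4a2 encode the chains of the type 4 molecule found in every basement membrane. Col4a1 had signals of 8055 and 2290 (chr8:11199009-11199068), 3.37-fold lower with a difference of -1.75, and Col4a2 had 6611 and 1773 (chr8:11448840-11448899), 3.57-fold lower with a difference of -1.84. The pair differed by 0.08, the smallest spread of any set of partner chains compared here. These genes lie head to head on chromosome 8, and in the RefSeq table on GRCm38.p6 the start of Col4a1 on the minus strand (base 11312826) and that of Col4a2 on the plus strand (base 11312805) are 21 bases apart. The Col4a2 start has the lower position, so the annotated genes overlap there and no gap lies between them.

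The other type 4 chains, those of specialised basement membranes such as that of the kidney filter, had lower signals on the tumor-draining array in 3 of 4 cases. Col4a3 was detected only on the normal array, with signals of 43.6 and 2.12 (chr1:82714546-82715399, a span that crosses an intron), at least 5.05-fold lower. Col4a4 had 135 and 41.8 (chr1:82445053-82445112), a difference of -1.63, and its other probe, with 48 and 2.95, was detected only on the normal array. Col4a5 had 240 and 90.3 (chrX:138123547-138123606), a difference of -1.35, whereas its other probe had 29.3 and 27.8, a difference of -0.01. Col4a6, whose start lies 1343 bases from that of Col4a5 on chromosome X, was detected only on the tumor-draining array (4.64 and 8.88 at chrX:137599990-137600049), with a bound of 1.2-fold, too small for a call. The type 8 chains, which form hexagonal sheets under endothelial cells, were both lower. Col8a1 had 1150 and 195 (chr16:57627033-57627092), 5.65-fold lower with a difference of -2.50, the lowest of the 6, and Col8a2 had 65.6 and 15.1 (chr4:125991441-125991500), 4.17-fold lower with a difference of -2.06. Col10a1, the chain of growth-plate cartilage, was detected on neither array.

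Of the type 6 chains, 5 of 6 were at least 2-fold lower, with a class median of -2.12. Type 6 is classically built of 1 chain each of Col6a1, Col6a2 and Col6a3. Col6a1 had signals of 32616 and 9862 (chr10:76171538-76171597), a difference of -1.66, and its neighbour on the chromosome, Col6a2, had 4253 and 1082 (chr10:76058931-76058990), a difference of -1.91 and at most -1.91 at each of 3 probes. Col6a3 had 13119 and 2493 (chr1:92663663-92663722), 5.04-fold lower with a difference of -2.33, and its 3 probes ran from -2.46 to -2.07. These partners spread over 0.67.

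Col6a4, Col6a5 and Col6a6 encode chains that resemble Col6a3 and lie side by side on chromosome 9. Col6a5 had signals of 2327 and 444 (chr9:105759441-105759500), 5.02-fold lower, and its 3 probes ran from -2.59 to -2.33. Col6a6 had 77.0 and 14.8 (chr9:105676597-105676655), 5.0-fold lower with a difference of -2.32. Col6a4 had 419 and 400 (chr9:105892911-105892970), a difference of -0.0032. The neighbours Col6a5 and Col6a6 thus had differences 0.0072 apart and the neighbours Col6a4 and Col6a5 2.33 apart. Of 8 pairs of adjacent collagen genes, 5 had both members detected on both arrays, and the gaps of the other 3 were 0.08 for Col4a1 with Col4a2, 0.25 for Col6a1 with Col6a2 and 1.01 for Col3a1 with Col5a2.

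Among the remaining types, 9 of the 15 chains detected on both arrays were lower by 2-fold or more, 1 was higher and 5 lay within 2-fold, with a median of -1.23. Col26a1 had the lowest difference of the 37 collagen chains, -2.73, with signals of 735 and 106 (chr5:137217629-137217688), 6.64-fold lower. A second probe that shares 39 bases with it gave -2.63, and the remaining probe, with signals of 27.1 and 16.8, gave -0.63. Some chains sit on the surface of fibrils and form no cables themselves. Col14a1 had 479 and 90.7 (chr15:55347733-55347792), 5.07-fold lower with a difference of -2.34. Col16a1 had 12431 and 3318, a difference of -1.84, and Col12a1 had 294 and 80.9, a difference of -1.80, with -1.76 at a dimmer probe and 2 further probes detected on neither array. Col20a1 had 155 and 150, a difference of 0.01. These 4 do not cover every chain of this kind on the array, so no share is taken from them.

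The type 9 chains form a single molecule and spread over 1.68: Col9a1 had 27.9 and 12.1 (chr1:24259298-24259357), a difference of -1.14, Col9a2 had 90.6 and 126 (chr4:120727698-120727757), a difference of 0.54, and Col9a3 had 14.7 and 19.4 (chr2:180350553-180351135), a difference of 0.47. At the brightest probes the direction thus differed between partners of types 9 and 11, both cartilage collagens. It did not differ there between the partners of types 1, 5 and 8. For types 9 and 11 it rests in part on dim probes. Col9a1 had -0.24 under normexp and -0.11 with the mean over all its probes. Col15a1 and Col18a1 encode basement membrane collagens that carry sugar chains and release fragments known to act on vessels. Col18a1 had 6568 and 2238 (chr10:76515820-76515879), 2.81-fold lower, and Col15a1 had 289 and 118, 2.34-fold lower. Of the chains that span the cell membrane, Col23a1 had 169 and 42.8, a difference of -1.92, with -2.53 at a dimmer probe and 35.2 and 4.72 at the dimmest probe, detected only on the normal array, and Col25a1 had 64.8 and 22.3, a difference of -1.48. Col13a1, also of this kind, had 535 and 353, a difference of -0.54, with -1.39 and 0.49 at its other probes.

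Col28a1, a chain known from peripheral nerve, was detected only on the normal array, with signals of 22 and 2.46 (chr6:7947808-7947867), at least 2.55-fold lower. Beside it, 4 of 6 markers of Schwann cells were lower by 2-fold or more (15.9% of all genes). The summed signal of the list was 5244 and 4961. Mbp, a myelin gene on that list, had 1599 and 4395 at its brightest probe, a difference of 1.52, but -0.84 at another probe detected on both arrays. The part of nerve cells in this value was not tested. Col22a1, a chain of tissue junctions, was detected only on the normal array (13.7 and 7.90 at chr15:71767749-71768433), with a bound of 1.59-fold and no call. Col19a1 was detected on neither array.

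The chains that anchor epithelium had no lower values. Col7a1, the chain of the fibrils that fix the epidermis to the dermis, had signals of 1935 and 2325 (chr9:108886855-108886914), a difference of 0.33. Col17a1, a membrane collagen of hemidesmosomes in basal keratinocytes, had 39.4 and 84.6 (chr19:47720894-47720953), 2.24-fold higher with a difference of 1.17 and 0.74 at its other probe. The 2-fold call for Col17a1 ended under normexp (0.59) and with the mean over its probes (0.95). Beside them, 3 of 7 keratinocyte and basal epithelium markers detected on both arrays were higher by 2-fold or more (11.1% of all genes). None was lower, whereas 15.9% of all genes were lower by 2-fold or more. The 3 higher ones were Krt14 with 458 and 2087, Krt5 with 226 and 821, and Trp63 with 2476 and 4785. Trp63 had a difference of 1.01 at its brightest probe. Its 3 probes detected on both arrays ran from 0.16 to 1.01 with a mean of 0.46. Dsg3 was detected on neither array, and the summed signal of the list was 7311 and 12457. A large part of that sum came from Krt8 (1070 and 1205) and Krt18 (2945 and 3338), with differences of 0.23 and 0.24. These 2 are not particular to basal keratinocytes, so the sum does not stand for those cells alone. The part of epithelial cells in the Col7a1 and Col17a1 values was not tested. Ranked by difference, the 37 chains formed a near-continuous series: of 36 gaps between neighbours in that order, 5 were larger than the between-probe SD of 0.27, and all 5 lay between Col9a1 (-1.14) and Col17a1 (1.17).

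Genes that make, fold, trim and cross-link collagen were also mostly lower. Of 33 such genes, 30 were detected on both arrays. Of these, 21 (70%, beside 15.9% of all genes detected on both arrays) were lower by 2-fold or more. None was higher by that much (11.1% of all genes) and 9 lay within 2-fold, with a median of -1.82. The lowest were Pcolce2, an enhancer of the proteinase that trims procollagen (4172 and 284, a difference of -3.82), and Tll1, such a proteinase (141 and 17.5, a difference of -2.95 and -0.36 at its other probe). The highest were Mia3, which loads procollagen into transport carriers (4263 and 3725, a difference of -0.13), and P4ha1, a catalytic subunit of prolyl 4-hydroxylase (338 and 337, a difference of 0.06). Loxl4, a cross-linking enzyme, was at least 11.6-fold lower at its brightest probe, which was detected only on the normal array (100 and 8.10), and had a difference of -2.79 at a dimmer probe detected on both arrays (72.6 and 10.1). P4ha3 and Adamts3 were detected only on the normal array with bounds of 1.95-fold and 1.33-fold, and no call. Serpinh1, the collagen chaperone of the endoplasmic reticulum, lay near the middle of the list with 11031 and 2812, 3.76-fold lower.

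Receptors that bind collagen followed with 11 of 14 genes detected on both arrays lower by 2-fold or more (78.6%, beside 15.9% of all genes). In that list 1 gene was higher (11.1% of all genes) and 2 lay within 2-fold, with a median of -1.67. The lowest were Ddr2, a receptor tyrosine kinase for fibrillar collagen (4975 and 622, a difference of -2.94, with probes from -3.19 to -2.62), and Itga1, the alpha 1 subunit of a collagen-binding integrin (608 and 82.8, a difference of -2.82). Itga2, the alpha 2 subunit, was detected only on the normal array (35.4 and 6.14), at least 4.10-fold lower. The highest were Lair1, an inhibitory collagen receptor of leukocytes (35.7 and 150, a difference of 2.13, 4.39-fold higher), and Gp6, the collagen receptor of platelets (11.1 and 13.5, a difference of 0.35). Beside Lair1, 8 of 8 leukocyte markers were higher, and their part in its value was not tested.

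Markers of the stromal cell types that make or border collagen were lower as well. Over all genes detected on both arrays, 15.9% were lower by 2-fold or more and 11.1% higher by that much. All 11 markers of fibroblastic reticular cells were at least 2-fold lower, from -3.20 to -1.03 with a median of -2.13, and their summed signal was 209658 and 69100. All 10 blood endothelial markers (median -2.97, summed signal 24384 and 3211) and all 7 lymphatic endothelial markers (median -2.35, summed signal 46619 and 8715) were at least 2-fold lower, as were 7 of 8 markers of pericytes and smooth muscle cells (median -2.81, summed signal 33927 and 10866). Ccl21a (32474 and 6278) stands in both the fibroblastic reticular and the lymphatic list and holds most of the lymphatic sum. The leukocyte, B cell and T cell lists had medians of 1.87, 1.80 and 2.43, with at least 2-fold higher values in 8 of 8, 6 of 7 and 7 of 7 genes and summed signals that went from 21397 to 75675, from 25760 to 58104 and from 10291 to 46875. Of 7 markers of macrophages and other myeloid cells (median 0.66, summed signal 18425 and 19058) 1 was at least 2-fold higher, near the share over all genes. Of 4 adipocyte markers detected on both arrays 3 were lower (summed signal of the list 14940 and 4486). The part of a changed mixture of cells in the collagen values was not tested.

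**Figure D4:**
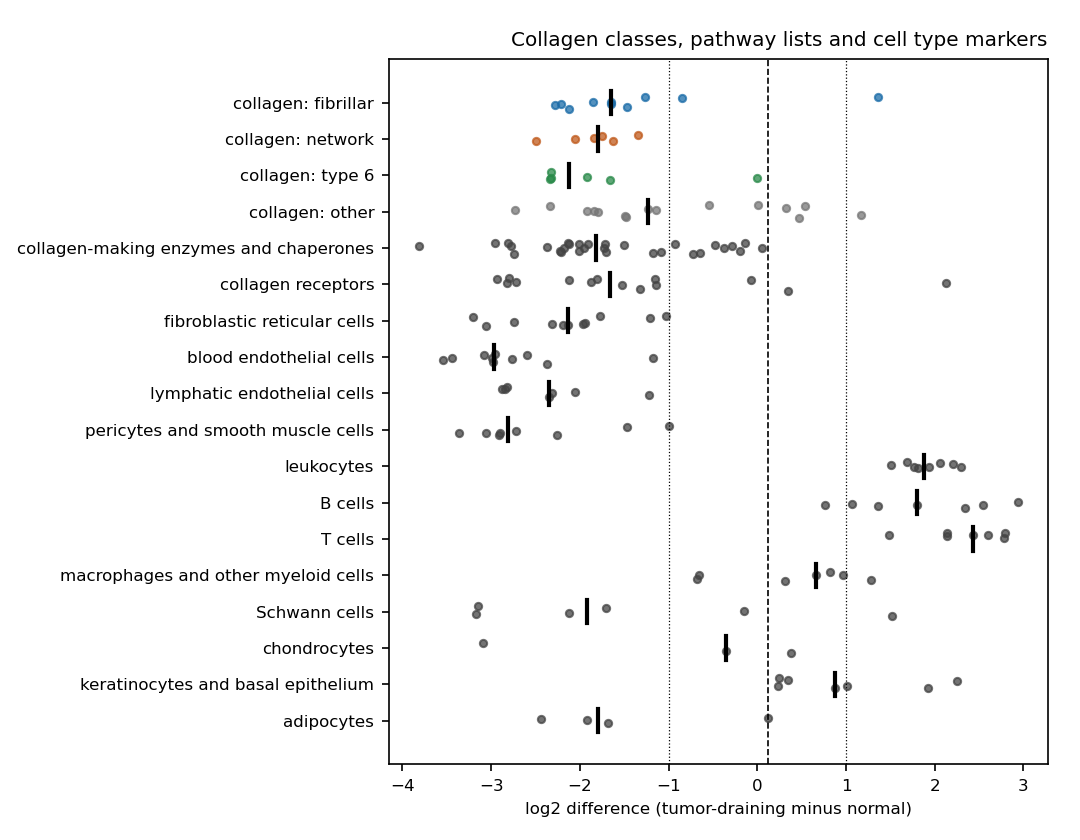
Log2 difference (tumor-draining minus normal) of each gene detected on both arrays in the 4 collagen classes, the enzyme and receptor lists and 12 marker lists, with a bar for the list's median; dotted lines mark 2-fold and the dashed line the median of all genes, 0.12. Collagen medians between -2.12 and -1.23 lie to the right of the fibroblastic reticular and endothelial medians, apart from type 6, which lies at the fibroblastic reticular one, and to the left of the leukocyte medians.

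The direction of most collagen chains held under the scalings tried, and the number past 2-fold did not. Differences below 0 numbered between 29 and 32 of 37 under 9 settings. At least 2-fold lower values numbered 28 in the main setting and 15 when both arrays were scaled to spike-in probes, whose median log2 difference was -0.82. That scaling raised the median of all genes to 0.92, against 0.10 in the main setting over genes detected on at least 1 array, and the share of lower values among all genes past 2-fold went from 59.0% to 14.6%. Among the collagen chains that share went from 93.3% to 75%. Under it Col3a1 had a difference of -0.02, Col1a2 of -0.44 and Col6a3 of -1.51, and Col13a1 and Col6a4 stood above 0 (0.29 and 0.82). Loess put Col20a1 at -0.16 and Col3a1 at -1.41. With the mean over detected probes, the calls of Col1a1 (-0.87), Col1a2 (-0.86) and Col4a5 (-0.68) ended, and under normexp 20 chains were lower by 2-fold or more, with Col9a1 (-0.24) and Col4a5 (-0.99) among those that did not.

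**Figure D5:**
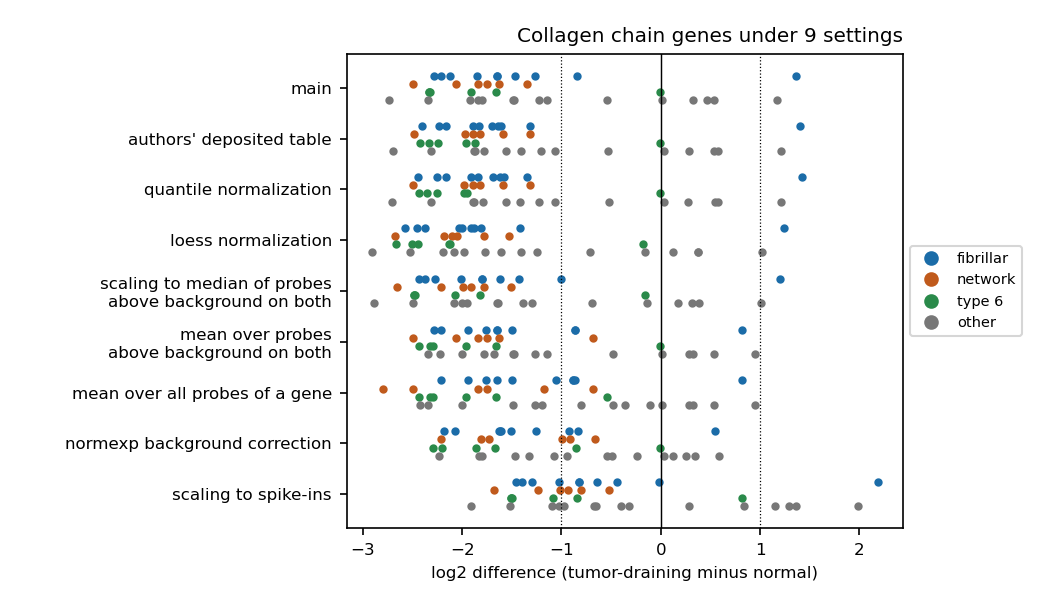
Log2 difference (tumor-draining minus normal) of the 37 collagen chain genes detected on both arrays under 9 settings, 1 dot for each gene, coloured by class; dotted lines mark 2-fold. Most dots lie below 0 in every row, and the row scaled to spike-ins is shifted to the right, with 15 genes lower and 5 higher by 2-fold or more.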

How the data were processed

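Both arrays were hybridized with amplified, Cy3-labeled RNA, per the labels' protocols, and share 1 slide and scan, per the file headers. The deposited scanner files hold linear intensities made, per the file headers, with Agilent Feature Extraction 12.0.3.1 under protocol GE1_1200_Jun14. Version 10.7 and limma stand in the submitters' processing notes, with no role. Probe positions are on mm9, per the file headers; exon and UTR annotation was not used here. The table of values the authors deposited is on the log2 scale, with unstated steps (r = 0.9999 with the log2 signals; column medians 4.85 and 4.86) and served as an alternative only; its normalization remains unknown, it shows no centring by gene, and a single-colour value has no ratio direction.

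Each spot's log2 processed signal was reduced by its array's 75th percentile over non-control spots. Spots the software marked as non-uniform or as replicate outliers were left out, spots of a probe averaged, and a gene represented by its brightest probe (mean over the arrays), with that probe's own background mark (50% of spots or more). All 44 collagen names matched current symbols in a RefSeq gene table (GRCm38.p6). With 1 array a group no test was run: 2-fold is a call by size, and the number of arrays limits precision. The step that calls genes by size was tested on simulated data with 1 probe a gene and changes well past 2-fold. The choice of probe, the averaging of spots, the scalings and calls near 2-fold were not tested in this way. The collagen genes, the lists and the naming rule were chosen with earlier results of these data known. The rule names every collagen chain, and of the enzyme and receptor lists the 2 lowest, the 2 highest and every bound; Serpinh1 and members of marker lists were named beside them after their values were seen. Alternatives were normexp (offset 50), quantile, loess (span 0.3), scaling to spike-ins with a signal under 60000 or to the median of all detected probes, means over probes, marked spots kept, the authors' table, no background filter, brighter genes only, means over members, and 1.5-fold or 3-fold. Work was done in Python 3.11.15 (numpy 2.4.6, pandas 2.3.3, matplotlib 3.10.9) and R 4.3.3 (limma 3.58.1).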

Additional observations from a re-analysis of the deposited data

How the results depend on the processing

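The medians of the collagen classes and of the enzyme and receptor lists stayed below 0 under the alternatives run. Of single chains, Col13a1 (0.29) and Col6a4 (0.82) stood above 0 with scaling to spike-ins, and Col20a1 below 0 with loess (-0.16) and with scaling to the median of detected probes (-0.14). Of the alternative values of counts and medians, 87 stayed within the between-probe SD of 0.27 or, for counts, within 1.5 times, while 30 moved further. Scaling to spike-ins gave 15 collagen chains at least 2-fold lower and 5 higher, beside 8.05% and 47.0% of all genes. Its medians were -0.82 for all chains, -0.82 for fibrillar, -0.97 for network, -1.29 for type 6 and -0.41 for other chains. Those of the lists were -1.09 for the enzymes and -0.98 for the receptors. Normexp gave no chain at least 2-fold higher (0) and medians of -0.97 for all chains, -0.95 for network, -1.76 for type 6, -0.49 for other chains, -1.28 for the enzymes and -1.32 for the receptors. Loess gave -1.94 for all chains and -2.08 for network. The mean over all probes of a gene gave 0 chains higher and medians of -1.26, -1.05 (fibrillar) and -0.80 (other), and the mean over probes detected on both arrays gave 0 chains higher. The mean over members in place of the median gave -1.32 for all chains, -1.15 for fibrillar, -1.76 for type 6 and -1.48 for the receptors. Keeping brighter genes only gave 18 lower and 0 higher, from fewer genes (22 chains), beside 15.1% and 10.2% of all brighter genes. Taking 3-fold in place of 2-fold gave 0 higher. The cause of the other shifts was not tested. No paired analysis was possible because each group has 1 array. The sources used here do not give the amounts of spike-in RNA. Under normexp Col6a6 had -0.85 in place of -2.32. For chains detected on 1 array only, the lowest detected signal, 7.72 and 8.27, limits the size of a bound. Probes not detected can lie above it, as did a Col6a4 probe with a normal signal of 7.74. A bound is thus a ratio to that signal and no sure minimum.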
